A study of Mus musculus with 2 samples.

Results

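Keratin genes were taken as the protein-coding genes of the GENCODE mouse annotation of GRCm38, the assembly also called mm10, whose symbol is Krt followed directly by a digit. This gave 53 genes among 21938 protein-coding genes. Keratins form the intermediate filaments of epithelial cells, and each filament pairs a type I chain with a type II chain. Simple epithelia such as those of lung airways and alveoli carry mainly KRT8 with KRT18, joined by KRT7 and KRT19, whereas skin and other stratified epithelia and hair use other pairs. The mouse genes lie in clusters, with 27 members on chromosome 11 and 26 on chromosome 15, among them Krt18, the only type I gene on that chromosome. Open chromatin had been mapped by DNase-seq, in which the enzyme DNase I cuts preferentially at DNA that is not wrapped in nucleosomes, in whole lung from newborn mice (postnatal, 0 days) of strain B6NCrl. There was 1 group of 2 biological replicates with no treatment named, and the sex was given as not collected. Both tissue samples are recorded under a single donor entry, and it is not said whether they come from different animals. The members were split into 4 simple epithelial keratins (Krt7, Krt8, Krt18 and Krt19), 43 stratified and hair keratins and 6 others (Krt20, Krt23, Krt42, Krt88, Krt90 and Krt222).

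For each library the authors' files list narrow peaks of 150 bp with a score and wider hotspots with a −log10 q-value. What the score measures is not given, and it reached 150 in replicate 1 and 148 in replicate 2. It is used below to rank peaks within each list, and a value followed by "lower-scoring" gives the percentage of peaks in that list with a lower score. The lists held 276480 peaks for replicate 1 and 188498 for replicate 2, and depth was not given, so scores are not compared in size between the replicates. A site is a merged interval of overlapping peaks, and a shared site holds peaks of both replicates that overlap by at least 1 bp. A promoter is called open where any part of a shared site comes within 500 bp of any transcription start site (TSS) annotated for the gene. Among lung epithelial marker genes, 9 of 10 had an open promoter, against 74.2% of genes with like promoter CpG number, including Nkx2-1, Sftpb and Sftpc, and the club cell gene Scgb1a1 had a peak in replicate 1 alone. In whole lung, a site open in few cells and a site weakly open in many cells cannot be told apart.

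All 4 simple epithelial keratin genes had an open promoter, against 8 of 43 stratified and hair keratin genes (18.6%). Over all members 14 of 53 were open (26.4%), and over all protein-coding genes 68.5%. Keratin promoters are mostly poor in CpG dinucleotides, with a median of 23 in the 500 bp on either side of the gene's outermost 5′ end, against 41 over all protein-coding genes, and CpG-poor promoters are less often open in these maps. Protein-coding genes in the same CpG deciles as the simple keratins had an open promoter in 58.1% of cases, and those in the deciles of the stratified and hair keratins in 60.8%. Among the 3 lowest CpG deciles, both simple members (Krt7 and Krt19) were open, against 0 of 5 stratified and hair members and 23.0% of protein-coding genes. These CpG numbers are those of the outermost 5′ end, whereas the open site of Krt19 lies at a start 2545 bp away and 1 of the Krt7 sites, with 11 CpG and a GC content of 70%, at an inner start. No test was made of these shares, since members lie side by side and there was 1 group of libraries.

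**Figure D1:**
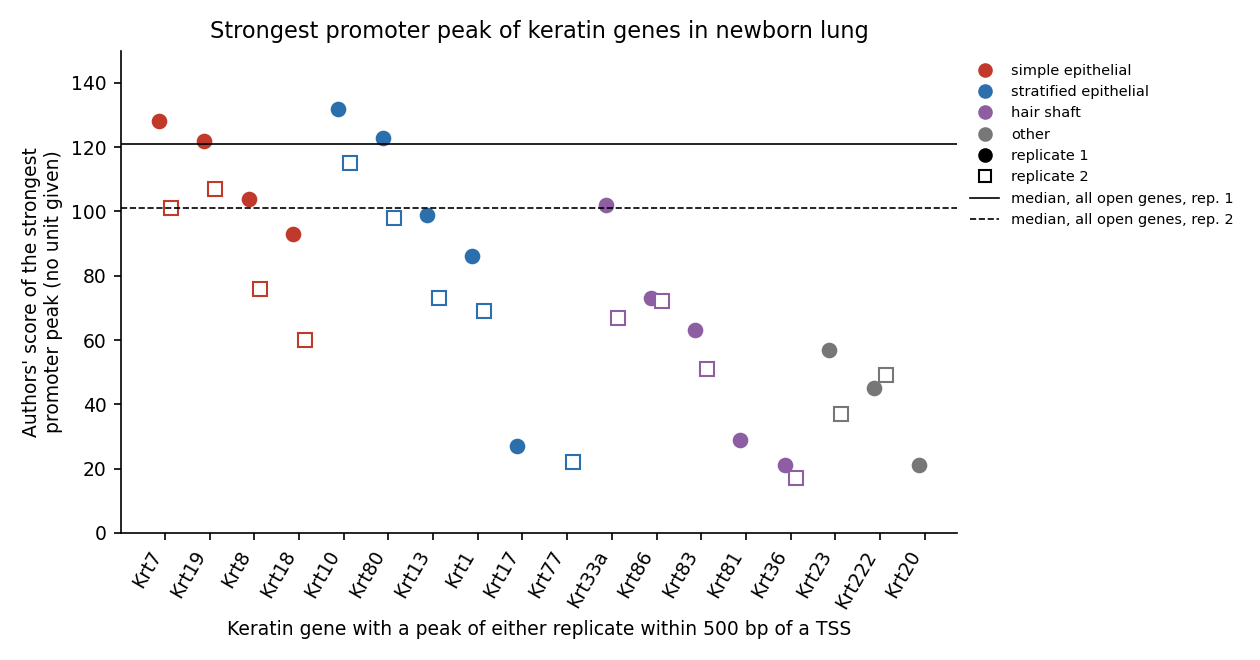
Authors' score (no unit given) of the strongest peak within 500 bp of a TSS for the 18 keratin genes with such a peak in either replicate; filled circles are replicate 1, open squares replicate 2, colours the keratin groups, and lines the medians over all genes with an open promoter (121 solid, replicate 1; 101 dashed, replicate 2). Krt7, Krt19, Krt10 and Krt80 lie at or above the replicate 1 line, while Krt17, Krt77, Krt81 and Krt20 have a peak in 1 replicate only.

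Krt7, which encodes a type II keratin of simple and ductal epithelia, had 4 shared promoter sites, as many as Krt80 and more than any other member. The strongest was centred 33 bp upstream of the gene's outermost 5′ end, at chr15:101410936-101411085, with scores of 128 in replicate 1 (97.5% lower-scoring) and 101 in replicate 2 (94.9% lower-scoring). Another, at chr15:101412256-101412425, covered the RefSeq start of Krt7 and scored 112 in replicate 1 and 84 in replicate 2. Its other promoter sites scored 86 and 39 in replicate 1 and 61 and 23 in replicate 2. A start of the overlapping gene Gm671 lies within 500 bp of these 3 inner sites, and their part in either gene was not tested. Krt7 has 5 annotated TSSs, so its promoter windows are wider in total than those of a gene with 1.

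Krt19 encodes a small type I keratin found in airway, ductal and mesothelial cells. Its only shared promoter site, at chr11:100146016-100146185, scored 122 in replicate 1 (96.4% lower-scoring) and 107 in replicate 2 (96.2% lower-scoring), the highest replicate 2 score of the simple keratins. It lay 20 bp from the TSS of the coding transcript and over its 5′ UTR for 105 of 170 bp. The 5′ end of the gene model belongs to a longer noncoding transcript 2545 bp upstream, which had no shared site within 500 bp. Further shared sites inside the gene scored 94 and 69 in replicate 1 and 68 and 43 in replicate 2.

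Krt8 and Krt18 encode the type II and type I chains of the main filament of simple epithelia, and they are transcribed away from each other, with 5′ ends 23698 bp apart. The Krt8 site, at chr15:102004336-102004505, scored 104 in replicate 1 and 76 in replicate 2 and lay mostly over the annotated 5′ UTR, within 500 bp of a start of the gene Gm36026. The Krt18 site, at chr15:102028096-102028245, was centred 10 bp from the TSS and scored 93 in replicate 1 and 60 in replicate 2. Both replicates thus rank the 2 genes in the same order, and both genes lay below Krt7 and Krt19. In replicate 2 the Krt18 site exceeded 72.2% of all peaks and the Krt8 site 85.1%. All 4 scores were under the medians of the strongest promoter site over genes with an open promoter, 121 in replicate 1 and 101 in replicate 2. Hotspots covered the 4 simple promoters at the upper limit of the −log10 q-value, 100, in both replicates. The same held for Krt80, Krt10, Krt13, Krt1, Krt33a, Krt36 and Krt86, so this value does not set the simple keratins apart. Among other open members, Krt83 reached 100 in replicate 1 alone, Krt222 in replicate 2 alone and Krt23 in neither.

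Sequences under or next to 3 of these peaks are shown. The Krt7 site is printed on the gene's plus strand from GRCm38, with capitals for the match to the TEAD motif (GGAATG). The Krt8 and Krt18 stretches are from the RefSeq promoter table (GRCm38.p6), cut to the bases outside annotated UTRs, chr15:102004483-102004592 on the minus strand and chr15:102027966-102028179 on the plus strand, and their capitals mark the bases under the shared site.
Krt7: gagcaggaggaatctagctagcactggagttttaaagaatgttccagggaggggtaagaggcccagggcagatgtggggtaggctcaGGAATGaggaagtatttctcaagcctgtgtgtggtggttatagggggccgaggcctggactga
Krt8: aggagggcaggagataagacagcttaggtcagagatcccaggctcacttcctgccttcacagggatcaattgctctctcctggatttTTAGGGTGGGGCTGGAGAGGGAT
Krt18: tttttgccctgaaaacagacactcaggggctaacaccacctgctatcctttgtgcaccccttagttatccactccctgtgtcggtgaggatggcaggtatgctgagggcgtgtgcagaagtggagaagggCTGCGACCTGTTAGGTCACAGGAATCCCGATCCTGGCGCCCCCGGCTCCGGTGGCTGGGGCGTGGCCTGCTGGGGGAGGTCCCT
Of the printed bases, 23 of the Krt8 stretch and 84 of the Krt18 stretch lie under the site, so the stretches stand for the sites only in part. The cut left out 190 bases for Krt8 and 86 for Krt18. Both stretches lie wholly upstream of the gene's outermost 5′ end, so they do not show the transcribed start. Counted over the whole site, Krt7 holds 1 CpG in 150 bp, Krt8 holds 3 in 170 bp and Krt18 holds 13 in 150 bp, with GC contents of 54%, 60% and 68%. The median over 29976 shared sites centred within 500 bp of a TSS was 9 CpG in 150 bp. GGAATG was present on either strand in 7.46% of those windows.

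Among the 20 stratified epithelial keratins 4 were open (20%, against 57.7% of genes in the same CpG deciles), namely Krt80, Krt10, Krt13 and Krt1. Krt80, a type II keratin gene at the edge of the chromosome 15 cluster, 40.9 kb from Krt7, also had 4 shared promoter sites. Its strongest site, at chr15:101370436-101370605, lay 358 bp upstream of the 5′ end and scored 123 in replicate 1 and 98 in replicate 2. The 3 others scored between 54 and 99 in replicate 1 and between 35 and 61 in replicate 2, and each lies within 500 bp of a start of Gm35853 or Mir1941. The basal cell keratins Krt5, Krt14 and Krt15, which mark basal cells of the trachea and of stratified epithelia, had no promoter peak in either replicate. Trp63, the transcription factor gene of basal cells, had 2 promoter peaks in replicate 1 and 0 in replicate 2, and Ngfr had an open promoter with scores of 69 in replicate 1 and 56 in replicate 2.

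The sites by which Krt10, Krt13 and Krt1 counted as open did not lie at the gene's outermost 5′ end. Krt10 and Krt1 encode the pair of keratins made by differentiating epidermal cells, and Krt13 a keratin of the oral and oesophageal lining. The Krt10 site, at chr11:99385996-99386145, scored 132 in replicate 1 (98.2% lower-scoring) and 115 in replicate 2 (97.6% lower-scoring), the highest of any member. It lay wholly in coding sequence, 3294 bp into the gene or 80.1% of its length, 27 bp from the start of a short annotated transcript, and the hotspot over it spanned 1138 bp in replicate 1 and 995 bp in replicate 2. The Krt1 site, at chr15:101846036-101846225, scored 86 in replicate 1 and 69 in replicate 2 and was also wholly coding, at 86.9% of the gene length. The Krt13 site lay 1106 bp into the gene, outside coding sequence and 32 bp from a RefSeq start, and scored 99 in replicate 1 and 73 in replicate 2.

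The Krt10 and Krt1 sites were alike in sequence, as printed here from GRCm38 on the genes' minus strand with capitals for the match to the GC box (GGGCGG).
Krt10: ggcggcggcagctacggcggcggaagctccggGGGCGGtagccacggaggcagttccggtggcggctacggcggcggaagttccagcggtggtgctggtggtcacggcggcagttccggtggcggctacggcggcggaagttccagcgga
Krt1: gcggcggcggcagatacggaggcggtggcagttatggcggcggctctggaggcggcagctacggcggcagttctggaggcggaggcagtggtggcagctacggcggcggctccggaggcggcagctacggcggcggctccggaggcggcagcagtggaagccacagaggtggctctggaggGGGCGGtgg
Both are rich in G and C and hold 22 CpG each, in 150 bp for Krt10 and 190 bp for Krt1, with GC contents of 74% and 74.2%. Among shared sites centred within 500 bp of a TSS, as both of these are, the median was 9 CpG in 150 bp and the 95th percentile 23, so neither lies beyond that range. Among shared sites over 1000 bp from any TSS, the 95th percentile was 6. A site of the same kind lay in Krt77, another type II gene beside Krt1, at chr15:101859936-101860105 and 88.2% of the gene length, with scores of 76 in replicate 1 and 56 in replicate 2, 22 CpG and a GC content of 70.6%. These were the only 3 mainly coding sites with a GC content of at least 70% among 59 shared sites over keratin gene bodies, and they were picked out after their values were seen. The GC box was present in 40% of shared promoter sites and 5.62% of shared sites over 1000 bp from any TSS.

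Hair keratins had few promoter sites. Of 8 inner root sheath and companion layer keratins 0 had a promoter peak in either replicate, whereas 70.4% of genes in the same CpG deciles had an open promoter. Of 15 hair shaft keratins 4 were open (26.7%), against 60% of genes in the same CpG deciles. Krt86 had a site 318 bp upstream of its 5′ end at chr15:101473076-101473245 that scored 73 in replicate 1 and 72 in replicate 2. Krt83, in the same hair keratin block, had a site 148 bp upstream at chr15:101491576-101491745 that scored 63 in replicate 1 and 51 in replicate 2. The Krt33a site lay outside coding sequence, 2272 bp into the gene at the start of a noncoding transcript, and scored 102 in replicate 1 and 67 in replicate 2. The Krt36 site was the weakest, with scores of 21 in replicate 1 and 17 in replicate 2, and was centred 516 bp into the gene.

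Among the 6 other members, Krt23 and Krt222 were open (33.3%, against 50% of genes in the same CpG deciles). The Krt23 site, 63 bp upstream of its TSS at chr11:99493116-99493285, scored 57 in replicate 1 and 37 in replicate 2. Krt222 had 2 shared promoter sites. One scored 43 in replicate 1 and 49 in replicate 2 and lay in a coding exon 215 bp from the start of an inner noncoding transcript. The other, near the 5′ end at chr11:99243416-99243585, scored 45 in replicate 1 and 29 in replicate 2, so the replicates rank them differently. Peaks of a single replicate were found at Krt17 (27), Krt81 (29) and Krt20 (21) in replicate 1 and at Krt77 (22) in replicate 2, each above at most 13.7% of the peaks in its list. With these, 17 of 53 members had a promoter peak in replicate 1, against 72.3% of protein-coding genes, and 15 of 53 in replicate 2, against 69.2%. Promoter hotspots were found at 18 of 53 members in replicate 1, against 72.6% of protein-coding genes, and at 15 of 53 in replicate 2, against 69.6%. In 35 members there was no promoter peak in either replicate. In the 35 stratified and hair members without an open promoter, 3 of them with a peak in 1 replicate, the nearest shared site lay 1119 to 18204 bp from the 5′ end, with a median of 5061 bp.

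Where only the 5′ end of the gene model counted as a start, Krt19, Krt10, Krt13, Krt1 and Krt33a were no longer open, which left 3 of 4 simple and 4 of 43 stratified and hair keratins, with 63% of protein-coding genes. Where only starts of curated RefSeq coding transcripts counted, an alternative added after the data were seen, Krt10, Krt1, Krt33a and Krt222 were no longer open. That left 4 of 4 simple and 5 of 43 stratified and hair keratins (Krt80, Krt13, Krt86, Krt83 and Krt36), with 63.9% of protein-coding genes.

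Within 50 kb of the gene, simple epithelial keratins had a median of 27 shared sites, against 11 for stratified and hair keratins and 14 for all protein-coding genes. Counting only sites over 1000 bp from any TSS, the medians were 17 for simple epithelial keratins, 8 for stratified and hair keratins and 8 for all protein-coding genes, so the stratified and hair keratins were then level with all genes. Counting all shared sites within 50 kb again, Krt8 had 30, Krt18 had 28, Krt7 had 26 and Krt19 had 13. Krt19 thus lay at the level of its neighbours, within the range of 4 to 33 for stratified and hair keratins. The member with the most was Krt80, with 33, and its window takes in the Krt7 promoter. The fewest, 4, were found at Krt5, Krt6a, the wound-induced keratin gene, and Krt72, a root sheath gene, all on chromosome 15. Neighbouring windows overlap, and 23 of the 35 sites near Krt8 or Krt18 lay within 50 kb of both genes, so these counts are not independent.

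**Figure D2:**
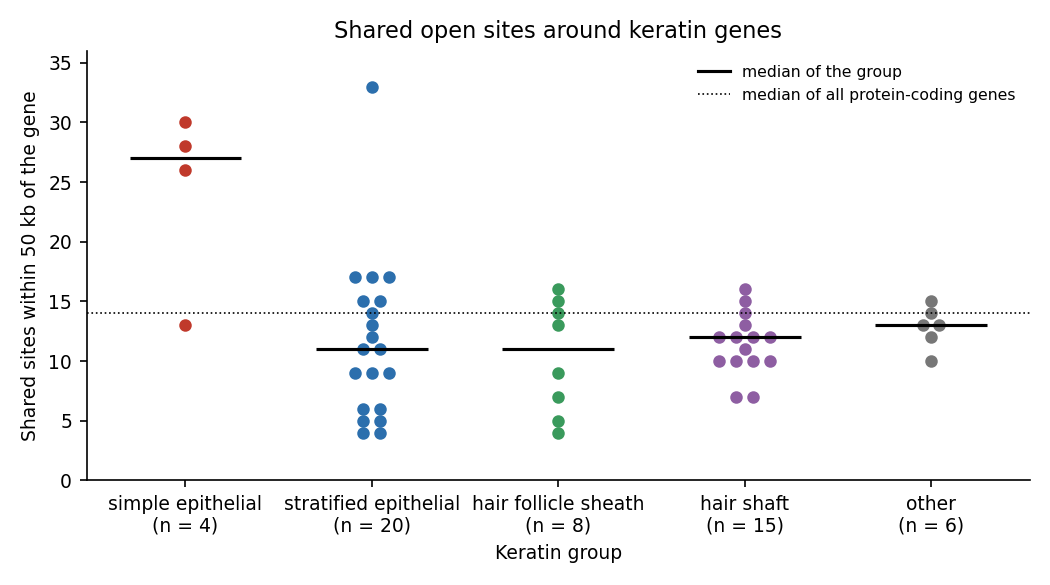
Number of shared sites within 50 kb of each keratin gene (points), by keratin group, with the group median (bar) and the median of all protein-coding genes (dotted line, 14). Krt7, Krt8 and Krt18 lie at 26 to 30 and Krt80 at 33, while all other members lie between 4 and 17.

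Counted once, 190 shared sites lay within 50 kb of any keratin gene, in 4 separate regions of 1551541 bp in all. This was 12.2 per 100 kb, against 5.91 over the 21 assembled chromosomes, which also take in stretches far from any gene. These densities are therefore not like for like. Per gene, the median within 50 kb was 12 shared sites for members and 14 for all protein-coding genes. The regions also held 81 intervals with peaks of replicate 1 alone. Another 18 held peaks of replicate 2 alone. The density was 15.9 per 100 kb in the region from Krt80 to Krt75, against 11.0 to 11.6 in the other 3. Of the 190 sites, 146 (76.8%) lay over 1000 bp from any TSS, against 75% of all shared sites. Median scores of the 190 sites were 72.5 (replicate 1) and 53 (replicate 2), whereas all shared sites had medians of 67 and 46. Across these 190 sites, which share their 2 libraries, Spearman's rho between the replicates' scores was 0.912.

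Between neighbouring keratin genes there were 87 shared sites, most of them in a few intervals. Of 49 intervals of at most 100 kb, 21 held 0 shared sites, 22 held 1 to 4 and 6 held at least 5. The most, 13, lay in the 23.7 kb between the 5′ ends of Krt8 and Krt18, or 5.49 per 10 kb. Sites were placed by their centres, so these 13 include the Krt18 promoter site. They scored 46 to 110 in replicate 1 (median 69) and 26 to 86 in replicate 2 (median 50). The 42.4 kb between Krt78, a stratified keratin gene, and Krt8 held 9 sites, fewer but stronger, with a median score of 103 in replicate 1 and 75 in replicate 2. The 40.9 kb between Krt80 and Krt7 also held 9, with median scores of 97 and 63, among them the strongest promoter site of each gene. The 39.8 kb between Krt20 and Krt23 held 8, with medians of 88 and 64.5. Krt20 is a gene of intestinal and urothelial cells, and its own promoter had a peak in replicate 1 alone. By contrast, the 38.5 kb between Krt14 and Krt16, both genes of basal or activated epidermal cells, held 0 shared sites and 1 peak of replicate 1 alone.

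**Figure D3:**
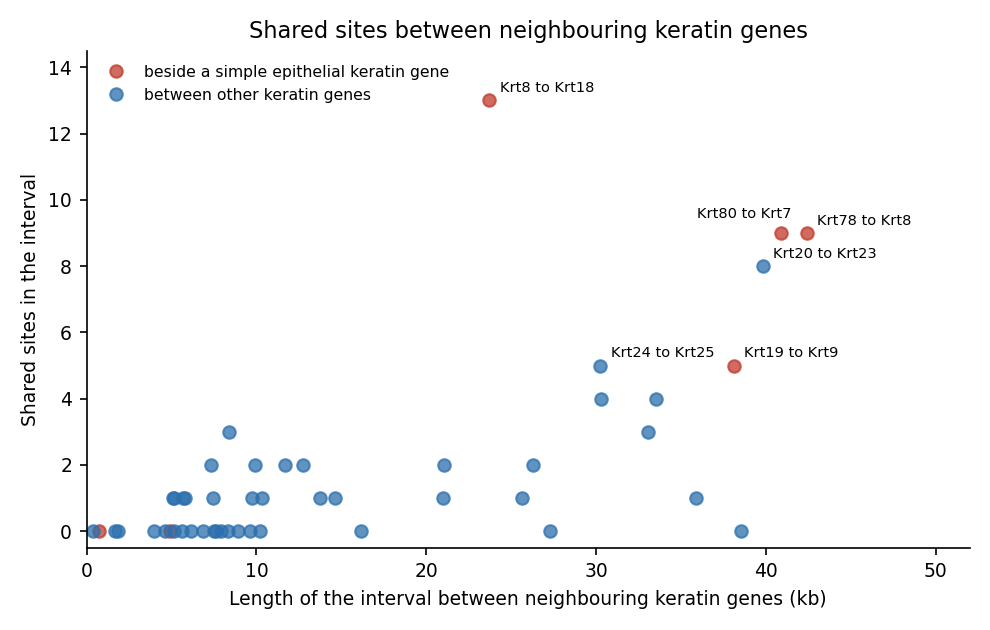
Number of shared sites (vertical axis) against interval length in kb (horizontal axis) for intervals between neighbouring keratin genes, red where an interval borders a simple epithelial keratin gene and blue otherwise. The interval between Krt8 and Krt18 is the highest with 13 sites, and 21 of the 49 intervals lie at 0.

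**Figure D4:**
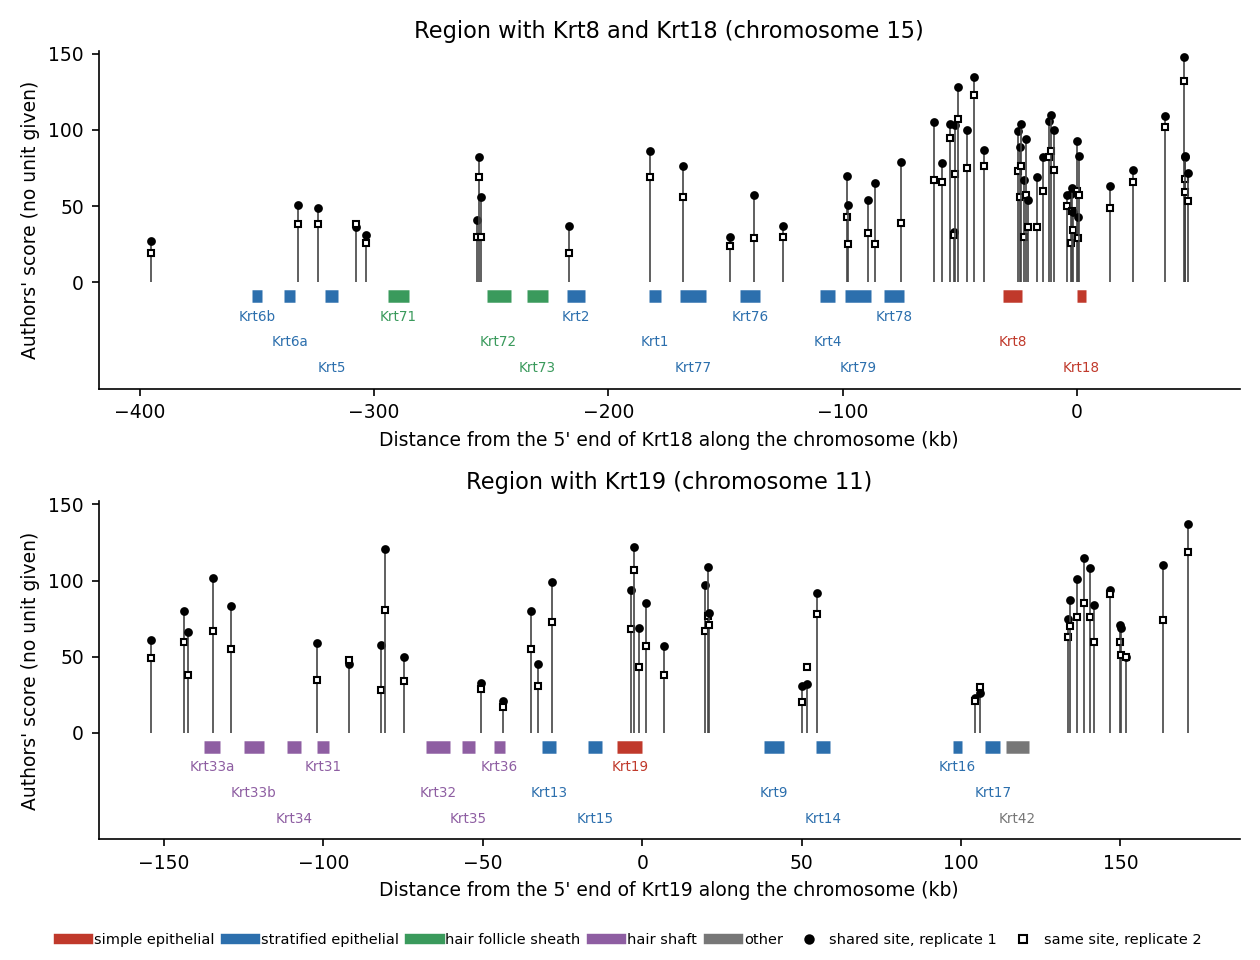
Shared sites around keratin genes by distance in kb from the 5′ end of Krt18 (upper panel) or Krt19 (lower panel); filled circles give the authors' score in replicate 1, open squares that of the same site in replicate 2, and bars below are the genes, coloured by keratin group. Sites are dense from Krt78 to Krt18 and sparse from Krt6b to Krt76. The strongest site between Krt78 and Krt8 scores 135 in replicate 1 and 123 in replicate 2. The highest point of the upper panel is the Eif4b site, with 148 and 132.

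The site at chr15:101984316-101984485 was among the 3 strongest within 50 kb of any keratin gene, with scores of 135 in replicate 1 and 123 in replicate 2. It lay 12213 bp beyond the 3′ end of Krt8, the nearest keratin gene, and 20082 bp from its 5′ end, and the nearest TSS of any gene, that of Gm36026, was 19812 bp away. The other members of the top 3 lay at the TSSs of translation factor genes, Eif4b (148 in replicate 1 and 132 in replicate 2) and Eif1 (137 and 119), each within 50 kb of 1 keratin gene, Krt18 and Krt42. Another strong site beyond Krt8, at chr15:101977476-101977625, scored 128 in replicate 1 and 107 in replicate 2. Both of these sites, among 9 in the interval between Krt78 and Krt8, are shown on the plus strand. They were the only ones there that outscored the Krt8 promoter itself in both replicates. Capitals mark CCAAT, the GC box on the reverse strand (CCGCCC) and the TEAD motif (GGAATG) in the first. In the second they mark the GC box on either strand and the AP-1 motif (TGANTCA).
First site: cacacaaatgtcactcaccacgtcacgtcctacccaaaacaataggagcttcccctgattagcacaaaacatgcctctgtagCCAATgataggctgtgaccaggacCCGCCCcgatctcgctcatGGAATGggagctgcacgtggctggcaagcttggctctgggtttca
Second site: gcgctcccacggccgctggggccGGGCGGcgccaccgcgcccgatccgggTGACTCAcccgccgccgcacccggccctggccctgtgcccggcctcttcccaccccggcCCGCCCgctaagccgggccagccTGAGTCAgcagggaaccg
The first holds 6 CpG in 170 bp. The second holds 20 CpG in 150 bp with a GC content of 80.7%, far above the median of 2 CpG over 120866 shared sites more than 1000 bp from any TSS. In 150 bp windows of those sites, matches were present in 10.3% for AP-1, 12.9% for TEAD, 17.1% for CCAAT and 5.62% for the GC box. Among the 146 such sites near keratin genes, they were present in 14.4% (21 sites), 17.1% (25), 12.3% (18) and 6.85% (10), in the same order. A match is a run of letters and does not show that a factor was bound.

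Hotspots took up more of the gene in the simple keratins at the median, though not in every gene. They covered a median of 17.95% of the gene in simple epithelial keratins, against 2.39% in stratified and hair keratins, in replicate 1. In replicate 2 the medians were 15.6% and 0.86%, and over all protein-coding genes they were 5.01% in replicate 1 and 3.27% in replicate 2. In replicate 1 the groups overlapped through Krt10 alone, since the simple keratins ran from 15.3% (Krt8) to 27.8% (Krt18). The stratified and hair keratins ran from 0 to 27.7% (Krt10), and the next highest was Krt36 at 11.7%. In replicate 2, only Krt10 (24.2%) and Krt25 (11.7%) lay above the lowest simple keratin, Krt7 (10.3%). Of the 43 stratified and hair genes, 15 held no hotspot in replicate 1 and 21 none in replicate 2. Over all 21938 protein-coding genes, 4470 held none in replicate 1 and 5006 none in replicate 2. Gene length, which differs as given next, was not matched. A shared peak site lay over the gene body in 4 of 4 simple keratins and in 22 of 43 stratified and hair keratins (51.2%), against 74.9% of protein-coding genes, which are longer (median 17.4 kb, against 6.59 kb for keratins). Krt14, closed at its promoter, had such a site at 89.1% of its length, chr11:100203556-100203725, with scores of 92 in replicate 1 and 78 in replicate 2.

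Genes whose products anchor keratin filaments were mostly open. Of 15 genes for desmosome, hemidesmosome and other keratin-binding proteins, 14 had an open promoter (93.3%), and genes in the same CpG deciles had one in 79.9% of cases. The highest ranked were Jup, which encodes plakoglobin, with 145 in replicate 1 and 132 in replicate 2, Plec, which encodes the linker plectin, with 135 and 104, and Ppl, which encodes periplakin, with 123 and 102. Eppk1, the epiplakin gene, had no promoter peak in either replicate. Of 12 genes of the cornified envelope, the cross-linked shell of dead epidermal cells, 3 were open (25%), against 24.9% in the same CpG deciles. They were Tgm1 (111 in replicate 1 and 72 in replicate 2), Sprr1a (63 and 42) and Ivl (52 and 52). Among 6 genes that mark mesothelium, the lining of the lung surface, 4 were open (66.7%, against 57.2% in the same CpG deciles), namely Krt19 itself, Msln (74 in replicate 1 and 53 in replicate 2), Upk1b (77 and 48) and Wt1 (64 and 31). Lrrn4 had no promoter peak, and Upk3b had peaks in replicate 1 alone. Of 5 basal cell genes, among them the members Krt5, Krt14 and Krt15 counted above, 1 was open (20%, against 56.1% in the same CpG deciles). The share of each cell type in the tissue was not measured, and its part in these values was not tested.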

How the data were processed

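DNase-seq peaks and hotspots of 2 biological replicates of newborn mouse lung were used as deposited. Per the submitters' processing notes the assembly is mm10, and the aligner, peak caller, their versions and the treatment of reads that match several places are not given in the sources used here, so values at near-identical copies such as Krt6a and Krt6b, or Krt81, Krt83 and Krt86, are uncertain. The deposited peaks carry a whole-number score from the authors whose meaning is not given. The deposited hotspots carry the authors' −log10 q-value, with a maximum of 100. Depth is unknown, so no counting interval is given.

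Chromosomes 1 to 19, X and Y (21 in all) were kept, exact duplicates were removed (26 peaks in replicate 1 and 23 in replicate 2), and overlapping peaks were merged. TSSs were those of all GENCODE transcripts of GRCm38, the mm10 assembly. Genes were ranked in deciles of CpG number in the 500 bp on either side of the gene's outermost 5′ end. RefSeq promoter sequences (250 bases before to 50 after the start) matched 36 of 53 members. The listed Krt3, Krt74 and Krt85 were not analysed here. All simple keratins, every other member with a promoter peak, the 3 members with most sites and the 3 strongest sites were named by a set rule, and other genes named were chosen after their values were seen. The members and lists were chosen with earlier results of these data known. There was 1 group, so values are descriptions without tests. The code was checked on peaks simulated near start sites. The promoter call recovered 200 of 200 genes with overlapping peaks in both replicates and called 0 of 200 with a peak in 1. Both outcomes follow from how the peaks were placed, so they do not measure accuracy on real peaks. Alternatives changed the TSS window, TSS set, overlap, peak strength, flank, peak type and replicate. Python 3.11.15, numpy 2.4.6, scipy 1.17.1 and matplotlib 3.10.9 were used.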

Additional observations from a re-analysis of the deposited data

How the results depend on the processing

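Of 46 recomputed values, 39 lay within 1.5 times the reported ones. The number of the 53 members with an open promoter was 12 with a window of 250 bp and 15 with 1000 bp. It was 11 with peaks at or above the median score only and 9 with the 5′ end of the gene model as the only start. Over all protein-coding genes the open shares were 66.9%, 70.7%, 62.3% and 63%, in the same order. The number of open stratified and hair keratins was 4 with that 5′ end and 5 with starts of curated RefSeq coding transcripts, and the start site annotation itself sets this difference. The median number of shared sites per member was 5 at 20 kb (8 over all genes), 23 at 100 kb (25), 7 with peaks at or above the median score (8) and 9 with sites over 1000 bp from any TSS only (8, so members then exceeded all genes), and the number of separate sites was 120 with peaks at or above the median score. With 1 replicate left out, any peak of the other list counted in place of a shared site. Members with a promoter peak then numbered 15 without replicate 1 (69.2% of all genes) and 17 without replicate 2 (72.3%). Simple keratins numbered 4 and stratified and hair keratins 9 to 10. The median per member was 13 without replicate 1 (17 over all genes) and 17 without replicate 2 (23), and separate sites numbered 212 to 278. No paired analysis was possible because there is 1 group and no test. The authors' unknown depth and peak threshold limit what a missing peak means.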

Other observations

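Keratin-associated protein genes (symbols starting with Krtap), whose products embed the keratins of the hair shaft, were added after the keratin values were seen. Of 57 such genes, 4 had an open promoter (7.02%), and genes in the same CpG deciles had one in 34.8% of cases. They had a median of 3 shared sites within 50 kb, against 14 over all protein-coding genes.

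In the RefSeq promoter sequences, TATAAA was present on either strand in 19 of 36 keratin genes (52.8%), against 14.2% of 27025 promoters. Of the 3 simple keratins with a sequence, Krt8 held it, though not within the Krt8 stretch printed above. The GC box (GGGCGG) was present in 2 of 36 (5.56%), one of them Krt7, against 35.9%. CCAAT was present in 14 of 36 (38.9%), against 37.9%. TTGCNNAA, the C/EBP motif, was present in 5 (13.9%), against 10.8%, and GGAATG in 3 (8.33%), against 14.6%. The AP-1 motif TGANTCA was present in 1 (2.78%), against 7.93%. The forkhead motif TGTTTAC was present in 0, against 3.55%, and the grainyhead motif AACCNGTT in 0, against 2.01%. Clustered members are not independent, and no test was made.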
